A study of Homo sapiens with 16 samples.

Results

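KMT2A was read in 5 lists of TOP2A cleavage cluster regions from K562, a human chronic myeloid leukaemia cell line. A cleavage cluster region is a short stretch of DNA recovered with topoisomerase II alpha (TOP2A), the enzyme that cuts and rejoins both DNA strands and that TOP2 poisons hold on the cut. Regions were taken when their centre lay in the KMT2A gene body (chr11:118436492-118526832, hg38) or within 20 kb of it. Of 1481258 deposited regions, 87 met that rule: 6 from the etoposide list, 26 from genistein, 13 from mitoxantrone, 26 from p-benzoquinone and 16 from DMSO. All treated and vehicle K562 cells had 0.05% DMSO in the medium. The poisons were 25 µM etoposide for 1 h, 50 µM genistein for 1 h, 2 µM mitoxantrone for 1 h and 8 µM p-benzoquinone for 4 h, and the vehicle cells had DMSO alone for 1 or 4 h. The lists pool 3 pre-amplified libraries for etoposide, 2 for genistein, 2 for p-benzoquinone and 3 for DMSO, while mitoxantrone has 1 library. Of the 16 libraries in all, 1 unamplified library each of etoposide, p-benzoquinone and DMSO is tied to no list. The input libraries, 1 amplified and 1 unamplified, have no treatment in the labels. The lists hold DNA regions and no expression, so the cell line could not be checked by its markers. Each treatment therefore has 1 list, in which a region mostly has 1 value and some have several that are tied to no library, so there is no replicate error and no p-value between treatments can be given. Which DMSO libraries had which exposure time is not labelled, so whether times match cannot be told, and p-benzoquinone was given longer than the other poisons.

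KMT2A encodes a histone H3 lysine 4 methyltransferase of the trithorax group that keeps HOX genes active in blood progenitors. The protein is cut by the protease TASP1, assembles with WDR5, RBBP5, ASH2L and DPY30, and is held on chromatin with menin (MEN1) and LEDGF (PSIP1). Translocations that join the front of KMT2A to a partner gene drive many infant leukaemias and leukaemias that follow chemotherapy with TOP2 poisons such as etoposide. Their breakpoints fall in a short part of the gene, the breakpoint cluster, taken here as chr11:118481000-118491000, which starts 44.5 kb from the gene start and makes up 11.1% of the gene. Mitoxantrone is an anthracenedione used in leukaemia, genistein is a soy isoflavone, and p-benzoquinone is a metabolite of benzene.

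The gene starts in a CpG-rich promoter, which is shown because none of the lists placed a region on it. The sequence is that of RefSeq on GRCh38.p14, chr11:118436242-118436541, plus strand, from 250 bases before the gene start to 50 after it, with each CG dinucleotide in capitals.
KMT2A promoter: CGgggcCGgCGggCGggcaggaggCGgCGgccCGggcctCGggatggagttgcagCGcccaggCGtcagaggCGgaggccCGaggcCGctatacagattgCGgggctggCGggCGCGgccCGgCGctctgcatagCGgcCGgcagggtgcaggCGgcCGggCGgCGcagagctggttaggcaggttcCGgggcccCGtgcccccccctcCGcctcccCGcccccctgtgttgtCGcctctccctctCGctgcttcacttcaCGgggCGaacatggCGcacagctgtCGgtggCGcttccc
These 300 bases hold 36 CG dinucleotides, and 12.7% of 35116 promoter windows of the same length hold at least as many. A region touched 2.56% of such windows under etoposide, 5.02% under genistein, 2.39% under mitoxantrone, 7.35% under p-benzoquinone and 4.85% in DMSO, so a promoter without one is the usual case. The nearest downstream region began 784 bp past the window under mitoxantrone and 1193 bp past it under p-benzoquinone, and the nearest upstream one ended 514 bp before it in DMSO.

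The first comparison asks how densely regions lay in KMT2A under each treatment. The p-benzoquinone list covered KMT2A far more than its own genome mean, the mitoxantrone list covered it 1.90 times that mean, and the other lists lay closer to theirs. Cover is the covered share of the gene body divided by the covered share of the callable genome in the same list, so 1 is the list's mean. It was 1.00 under etoposide, 1.42 under genistein, 1.90 under mitoxantrone and 8.03 under p-benzoquinone, against 1.18 in DMSO. In bases, regions filled 1.11% of the gene under etoposide, 3.68% under genistein, 2.43% under mitoxantrone and 17.9% under p-benzoquinone, against 2.199% in DMSO.

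Region numbers were much closer together than covered bases. After joining overlapping entries the gene held 6 regions under etoposide, 17 under genistein, 12 under mitoxantrone and 18 under p-benzoquinone, against 14 in DMSO. At each list's mean density 5.97 would be expected under etoposide, 13.6 under genistein, 6.63 under mitoxantrone and 11.7 under p-benzoquinone, against 10.1 in DMSO. Exact Poisson 95% intervals, which cover counting error only, were 2.202 to 13.1 regions (etoposide), 9.90 to 27.2 (genistein), 6.20 to 21.0 (mitoxantrone), 10.7 to 28.4 (p-benzoquinone) and 7.65 to 23.5 (DMSO). Each interval includes the number expected at the list's mean. Reads that PCR copied, with no molecular identifiers to tell them apart, are no independent molecules, so all intervals leave out such error and any difference between cultures.

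The excess of KMT2A cover under p-benzoquinone thus lay in the width of its regions. Among 2934 protein-coding genes of 0.67 to 1.5 times its length, KMT2A ranked 1 by cover under p-benzoquinone, 105 under mitoxantrone, 332 under genistein and 1351 under etoposide, and 990 in DMSO. Over all 18969 measured protein-coding genes, 0.448% had at least the KMT2A cover under p-benzoquinone, 10.0% under mitoxantrone, 15.9% under genistein and 39.2% under etoposide, and 35.0% in DMSO. Among the genes of similar length, 0.0341% had at least that cover under p-benzoquinone, 3.58% under mitoxantrone, 11.3% under genistein and 46.0% under etoposide, and 33.7% in DMSO. Against DMSO, the log2 ratio of cover with a pseudocount of 0.1 was 2.66 for p-benzoquinone, 0.64 for mitoxantrone, 0.25 for genistein and -0.22 for etoposide. The median over all genes was 0 for each, which is also the value of a gene without a region in either list. The p-benzoquinone and mitoxantrone ratios pass 1.5-fold. In the upward direction so did 30.1% of all genes and 21.2% of those of similar length for p-benzoquinone, and 20.1% and 18.8% for mitoxantrone. By the p-benzoquinone ratio KMT2A ranked 4 of 2934 genes of similar length but 1786 of all 18969 genes. By the mitoxantrone ratio it ranked 498 and 3576. The mitoxantrone value is therefore common among genes. For genistein 21.7% of all genes and 17.5% of those of similar length passed upward and 27.5% and 20.6% downward, and for etoposide 20.7% and 18.9% upward and 30.4% and 24.4% downward, while KMT2A passed neither way. The 4 ratios share 1 DMSO list. By region number scaled to list size the ratio over DMSO was 1.11 for p-benzoquinone (95% interval 0.521 to 2.41), 1.31 for mitoxantrone (0.553 to 3.05), 0.907 for genistein (0.421 to 1.99) and 0.728 for etoposide (0.229 to 2.02), and every interval includes 1. Without the 1 region wider than 5 kb, chosen after seeing the data, p-benzoquinone cover of KMT2A was 3.92, and without its 7 regions of 500 bp or more it was 0.976, where the log2 ratio over DMSO turned to -0.25. The p-benzoquinone list carries no input column, so whether its wide KMT2A regions come from TOP2A-bound DNA of the cells or from other KMT2A DNA in a library was not tested, which touches its cover, ranks and values here.

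**Figure D1:**
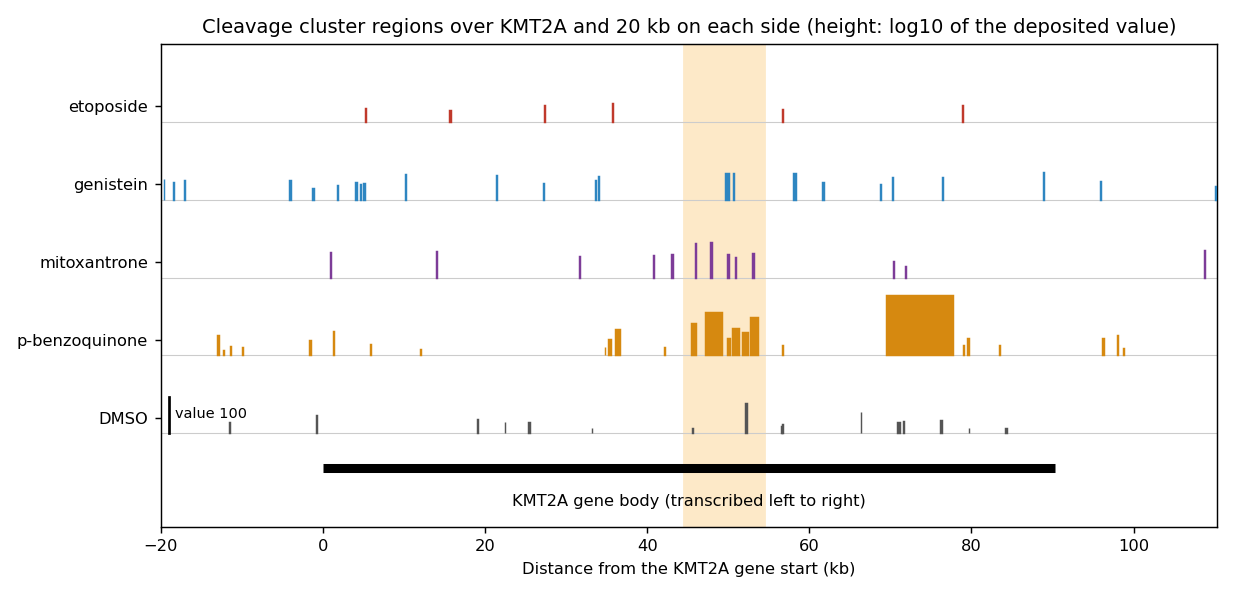
Regions of the 5 lists over KMT2A and 20 kb on each side; the x axis is distance from the gene start in kb, each box is 1 region drawn to its width, and its height is the log10 of its deposited value (scale bar: a value of 100). The shaded breakpoint cluster holds 0 etoposide, 2 genistein, 5 mitoxantrone, 6 p-benzoquinone and 2 DMSO regions, and the widest box is the p-benzoquinone region of 8288 bp.

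The second comparison sets the breakpoint cluster against the rest of the gene. Mitoxantrone and p-benzoquinone had more regions per kb in the cluster than in the rest of KMT2A, though most of their regions lay in the rest. Etoposide had none in the cluster, and the genistein and DMSO densities there were near those of the rest. In 10 kb the cluster held 0 regions under etoposide, 2 under genistein, 5 under mitoxantrone and 6 under p-benzoquinone, against 2 in DMSO. The rest of the gene held 6, 15, 7 and 12 regions under etoposide, genistein, mitoxantrone and p-benzoquinone, against 12 in DMSO. Per 10 kb that is 0.747, 1.87, 0.871 and 1.49 in the same order, against 1.49 in DMSO.

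The density in the cluster over that in the rest was 5.74 under mitoxantrone (exact 95% interval 1.44 to 21.0) and 4.02 under p-benzoquinone (1.24 to 11.6). It was 1.07 under genistein (0.119 to 4.61) and 1.34 in DMSO (0.146 to 6.01). The first pair of intervals lie above 1 and the other two include it. These intervals treat neighbouring regions as independent, so they depend on where the lists split a run. With regions up to 1 kb apart counted as 1, chosen after seeing the data, the ratio was 4.59 under mitoxantrone (0.986 to 18.1, 4 regions in the cluster against 7 in the rest) and 1.79 under p-benzoquinone (0.188 to 8.63, 2 against 9). With regions up to 2 kb apart counted as 1 it was 1.34 (0.0291 to 11.04) under mitoxantrone and 1.00 (0.0226 to 7.49) under p-benzoquinone, where the cluster counts as 1 region in each list. All of these intervals include 1. For etoposide the ratio was 0 with an exact upper bound of 6.82, so a lower density in the cluster was not detectable at this depth. Differences between treatments in this ratio were not tested, and the intervals overlap.

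**Figure D2:**
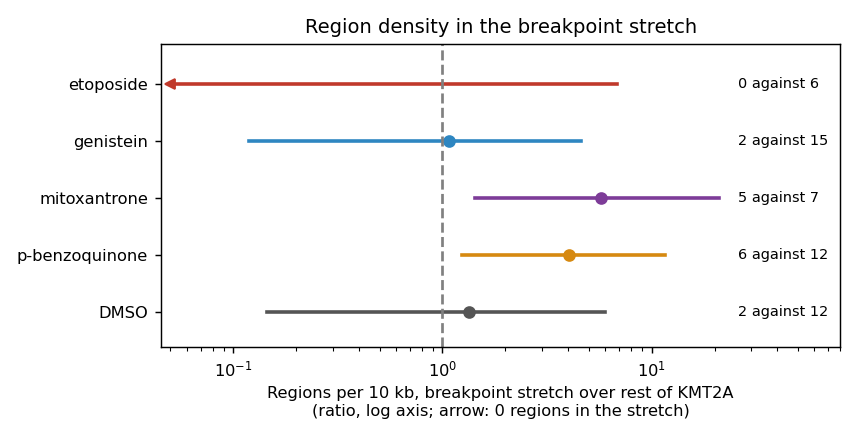
Ratio of regions per 10 kb in the breakpoint cluster over the rest of KMT2A, on a log x axis, with exact 95% intervals of counting error as lines and the region numbers (cluster against rest) at the right. With regions as the lists split them, the mitoxantrone and p-benzoquinone lines lie above 1, the arrow marks the etoposide ratio of 0, and all 5 lines overlap.

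Genome-wide, the cluster was an extreme 10 kb window in those same lists. The windows were laid out from the cluster start, so the cluster is exactly 1 window. Of 275952 windows of 10 kb, 0.0852% held at least 5 mitoxantrone regions and 0.547% held at least 6 p-benzoquinone regions. These counts take regions as the lists split them, and the windows were not recounted with near regions joined. At least as many regions as in the cluster were held by 44.6% of windows for genistein and 31.4% for DMSO, so those counts are ordinary. By covered bases the cluster had 1075 bp under mitoxantrone, rank 105, a level that 0.0381% of windows reached. Under p-benzoquinone it had 5796 bp, rank 1 of all windows on this grid (0.000362%). Under genistein it had 651 bp, which 6.59% of windows reached, and in DMSO 319 bp, which 21.5% reached.

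The cluster filled 58.0% of its length with p-benzoquinone regions, 10.8% with mitoxantrone regions and 6.51% with genistein regions, against 3.19% with DMSO regions. The window that starts 64.5 kb from the gene start had 5049 bp covered under p-benzoquinone, rank 2 of all windows, and the next one had 3666 bp, rank 3. The 3 most covered windows of the p-benzoquinone list were therefore all in KMT2A. Their order depends on the grid, which splits the p-benzoquinone region of 8288 bp described below. A window placed over that region would hold more covered bases than the cluster. The window between the cluster and those, 54.5 kb from the gene start, had 166 bp, close to the usual level.

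**Figure D3:**
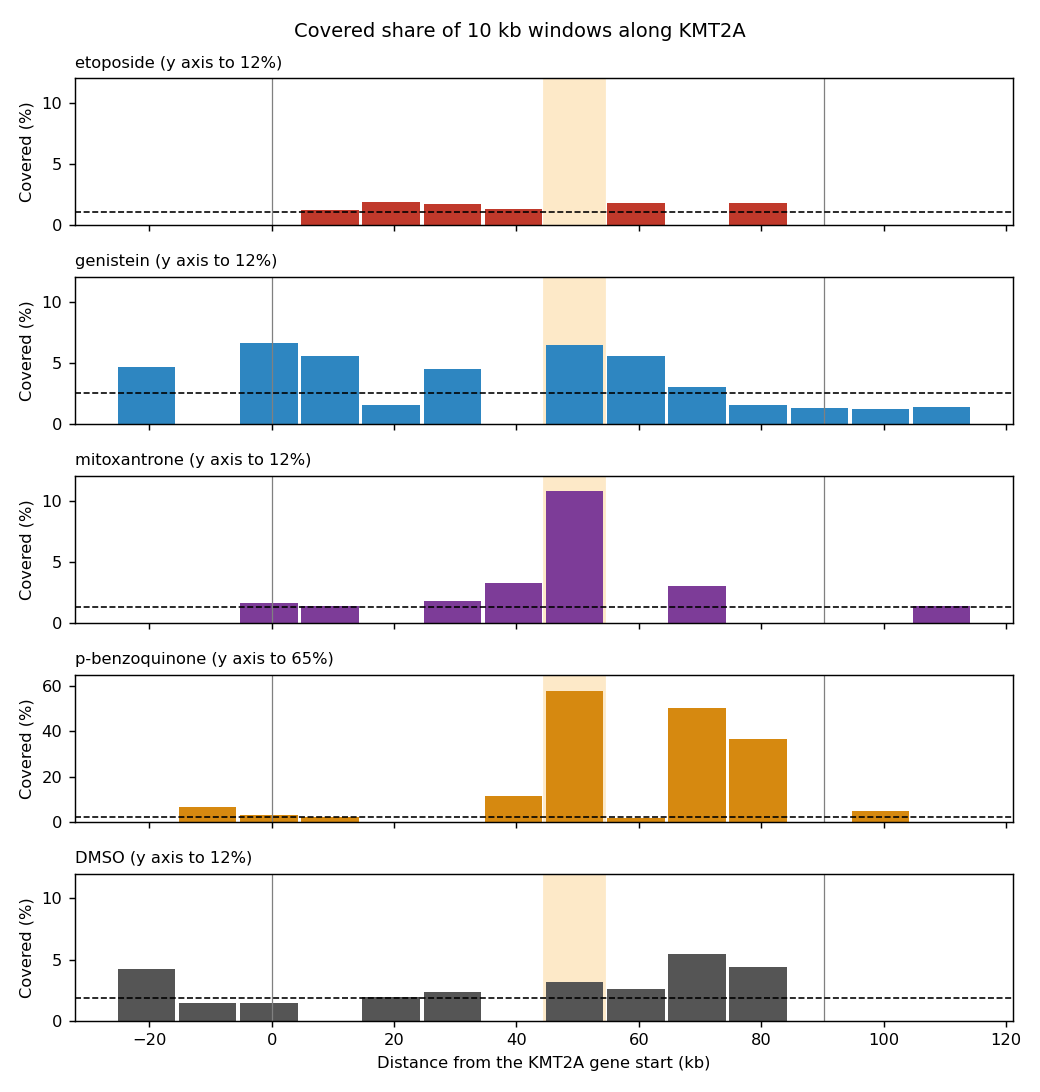
Covered share of consecutive 10 kb windows (bars, in percent) against distance from the KMT2A gene start in kb; the dashed line is the list's genome mean, grey lines mark the gene ends, and the breakpoint cluster is shaded. The p-benzoquinone axis runs to 65% and the others to 12%; its 3 tall bars are the cluster and the windows that start 64.5 and 74.5 kb from the gene start, and the tallest mitoxantrone bar is the cluster.

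The p-benzoquinone regions of the cluster formed a near-continuous run. The 6 regions ran over 8303 bp (chr11:118481838-118490140), of which 69.8% was covered, and the gaps between them were 260 to 1019 bp. Their deposited values, which have no stated unit and are compared only within a list, were 54.9, 221.5, 9.11, 29.6, 18.2 and 127.0 from the 5′ to the 3′ end. The list's median value was 4.83. The region of 221.5 (chr11:118483579-118485774) was 2196 bp wide, the second widest and second highest of the 359249 regions in the list. The region of 127.0 (chr11:118489139-118490140) was 1002 bp wide and rank 4 by value.

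A still larger p-benzoquinone region lay downstream in the gene, outside the breakpoint cluster. It covered chr11:118505952-118514239, 69.5 to 77.7 kb from the gene start, with a width of 8288 bp and a value of 1817, rank 1 of the list by both. The highest value outside KMT2A was 135.1 and the widest region outside it 1358 bp. Divided by its width its value was 219.2 per kb, against a list median of 31.8, though whether values scale with width was not tested. Over the same bases the other lists held 0 regions under etoposide, 2 under genistein and 2 under mitoxantrone, against 3 in DMSO. Their summed values were 36.2 under genistein and 12.3 under mitoxantrone, against 19.04 in DMSO. The highest mitoxantrone value there was 8.10, below that list's median of 13.3.

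Outside both spans the p-benzoquinone cover of KMT2A was closer to the list mean, with some regions of high value. The remaining 73.8 kb held 11 regions of 105 to 542 bp, with values from 2.16 to 29.2 and a median of 3.86, and its cover was 1.28. The highest of them (chr11:118472563-118473104) was 542 bp wide, at percentile 99.5 by value and 99.3 by width, and another (chr11:118437735-118437862) had 22.5, percentile 98.5. The window that starts 34.5 kb from the gene start had 1142 bp covered, rank 1422 of all windows. Both spans, 18.4% of the gene, held 96.1% of the summed p-benzoquinone values of KMT2A.

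**Figure D4:**
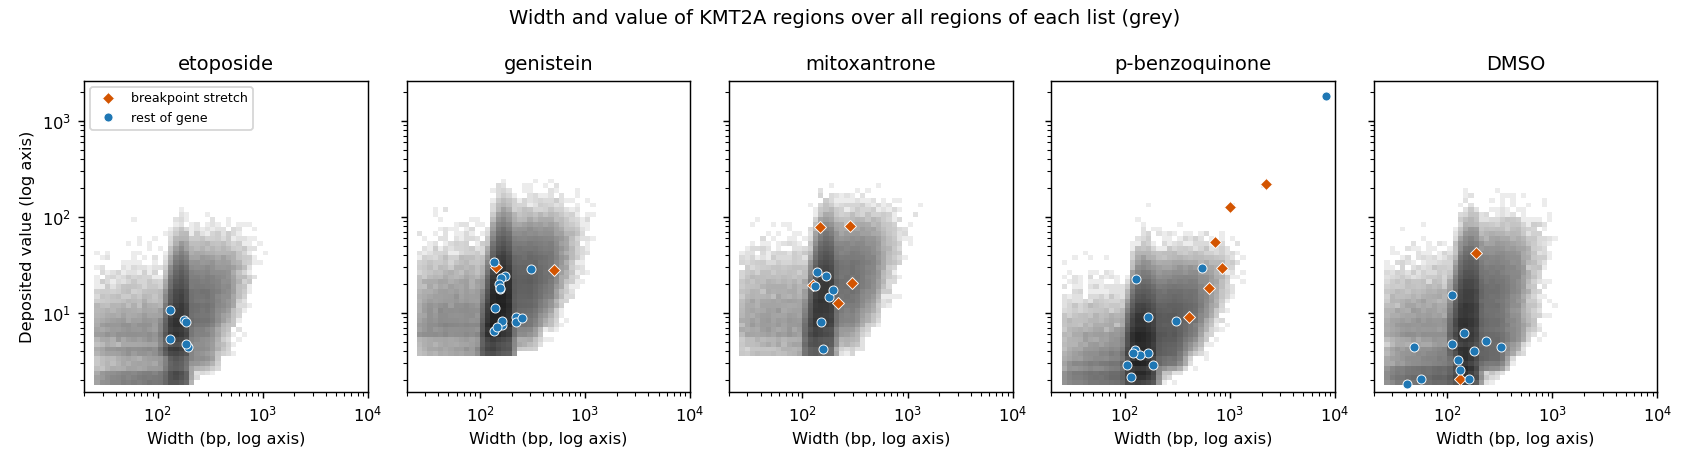
Width in bp (log x axis) and deposited value (log y axis) of every region of each list as grey density, with the KMT2A regions of the breakpoint cluster (diamonds) and the rest of the gene (circles) on top. Under p-benzoquinone 1 region of 8288 bp and 1 of 2196 bp lie apart from all other regions of the list. The KMT2A regions of the other 4 lists lie among the other regions of their list.

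The p-benzoquinone excess was set beside the steps of the list's values, since 2 libraries made it. Low values of that list lay on whole multiples of 2 steps, 0.2275 and 0.24125. That there are 2 of them was a choice made by hand, and whether a step stands for 1 library was not tested. Which labelled library would belong to which step was not assigned. Of values that matched 1 step only (within 0.02, for values under 30), 20.1% of the list were on the finer step, 59169 against 234894 on the coarser. In the breakpoint cluster 3 of 4 such values were on the finer step, and in the rest of KMT2A 0 of 6 were. The tolerance alone lets 17.6% of evenly spread values match the finer step and 16.6% the coarser.

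Of the p-benzoquinone regions of the cluster, 2 were deposited with 2 values each. One (chr11:118486959-118487798) had 29.6, on the finer step, and 3.86, on both. The other had 127.0, too high to match, and 6.03, on the coarser step. So 1 value of the cluster matched the coarser step alone, at a much lower level than its partner, which was not matched. The tolerance by itself can give such a single match. The cluster values 54.9, 221.5 and 127.0 and the region of 1817 were too high to be matched, so whether 1 library carried them was not tested.

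Mitoxantrone regions in the cluster stood out by value in 2 of 5 cases. They had values of 79.1 (chr11:118482411-118482558), 81.0 (chr11:118484214-118484498), 19.45 (chr11:118486391-118486517), 12.6 (chr11:118487278-118487495) and 20.4 (chr11:118489387-118489683). The first pair lie at percentiles 99.5 of the list, while the other 3 lie between percentiles 46.8 and 71.8. In the rest of the gene the 7 mitoxantrone values ran from 4.21 to 26.6 with a median of 17.5, beside a list median of 13.3. The cluster held 65.02% of the summed mitoxantrone values of the gene.

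Only the mitoxantrone list had columns that were read as an input value, a log2 ratio and a p-value. Their meaning was taken from the values, and which input library was used is not stated. In the authors' deposited table the input values of the 5 cluster regions were 0.94, 2.60, 0.23, 0.71 and 0, in the order above, with a list median of 0.23. The 2.60 lies at percentile 99.3 of all input values. In the authors' deposited table the log2 of treated over input was 6.39, 4.96, 6.40 and 4.15 for the first 4, beside a list median of 4.82 and a lowest kept value of 4.00. Where the input was 0 the authors' deposited table gave a value read as a p-value instead, 3.59e-07 for the fifth region. Summed over regions, treated and input values were 212.6 and 4.48 in the cluster and 114.4 and 4.47 in the rest of the gene, a log2 ratio of 5.57 and 4.68. How the regions were called is not given, and no log2 ratio in the list is below 4.00. These sums therefore hold only regions that were kept in the list. The values 79.1 and 81.0 make up most of the treated sum of the cluster. Single log2 ratios in the authors' deposited table ran from 4.15 to 6.40 in the cluster and from 4.02 to 5.69 in the rest of the gene, and these ranges overlap.

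Genistein had 2 regions in the 3′ part of the cluster, both above the list median. DMSO had 1 high region in the 3′ part and 1 low region in the 5′ part. Genistein regions were at chr11:118486067-118486576, joined from entries of 28.3 and 13.55, and at chr11:118487024-118487164, with a value of 30.2, percentiles 85.6 and 87.6 of the list. In the rest of the gene genistein values ran from 6.44 to 34.1 with a median of 11.2, below the list median of 12.9. DMSO had a region of 41.9 at chr11:118488606-118488792, percentile 98.5 and the highest DMSO value in the gene. It also had a region of 2.07 at chr11:118482000-118482131, percentile 6.01. Its other 12 values in KMT2A ran from 1.84 to 15.2 with a median of 4.22, against a list median of 6.24.

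Etoposide regions were spread over the gene with ordinary values. They were centred 5.23, 15.7, 27.3, 35.7, 56.7 and 78.9 kb from the gene start, with values of 5.41, 4.40, 8.48, 10.9, 4.79 and 8.14. The list median was 7.79, and none of the 6 passed percentile 69.9. No etoposide region lay within 20 kb outside the gene, where genistein had 7, mitoxantrone 1 and p-benzoquinone 8, and DMSO 2.

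**Figure D5:**
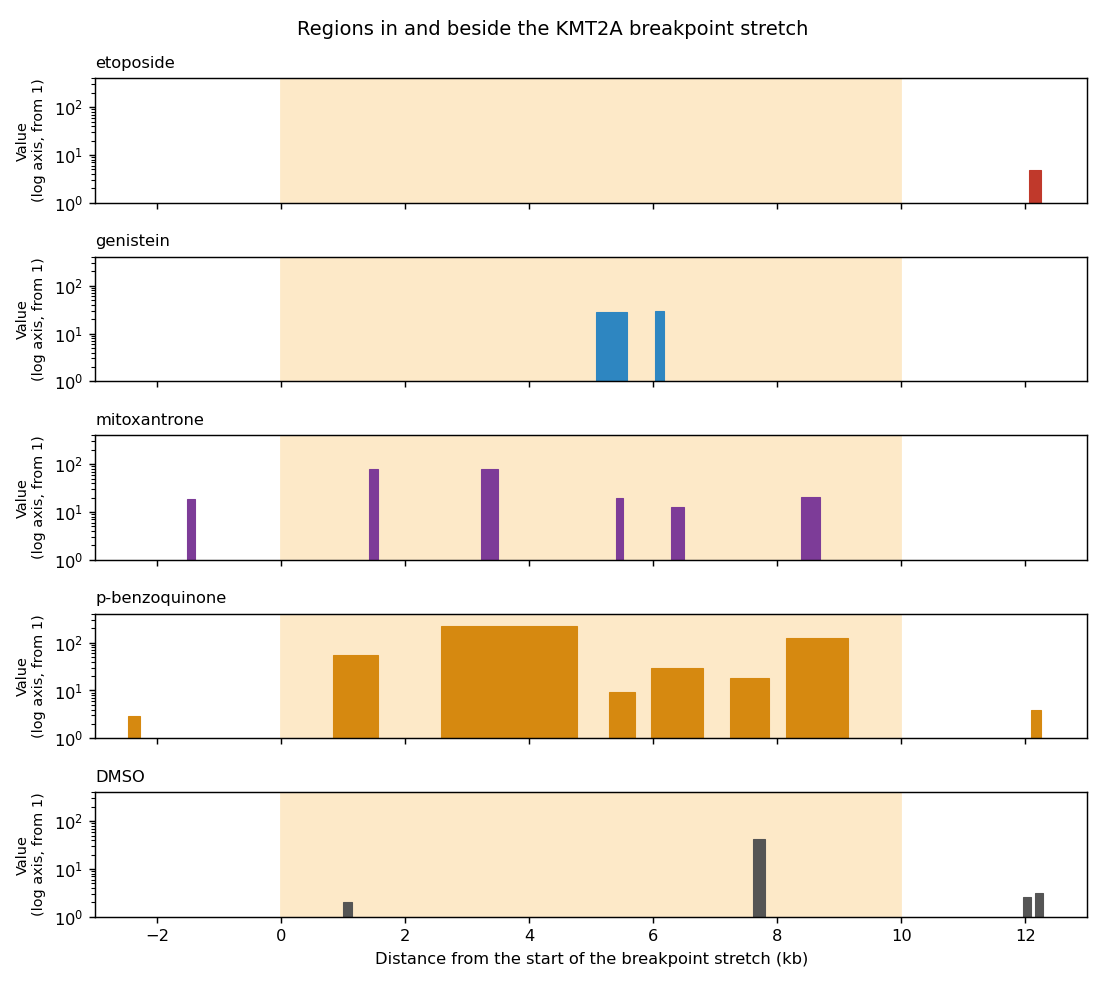
Regions in the shaded breakpoint cluster and 3 kb on each side, as boxes from 1 up to the deposited value (log y axis) against distance in kb from the start of the cluster, 1 panel per list. The p-benzoquinone panel shows a run of 6 wide boxes; the 5 mitoxantrone boxes and the 2 boxes each of genistein and DMSO lie within that run, and the etoposide panel has none in the cluster.

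The third comparison asks whether treatments shared positions in KMT2A. All regions of the other lists in the cluster overlapped a p-benzoquinone region, 2 of 2 for genistein, 5 of 5 for mitoxantrone and 2 of 2 for DMSO. Over whole lists 6.84% of genistein, 6.91% of mitoxantrone and 9.16% of DMSO regions overlapped a p-benzoquinone region. The overlap in the cluster is to be read beside the 58.0% of it that p-benzoquinone covered, though a region overlaps more readily than a single base. Between mitoxantrone and DMSO no region of the cluster overlapped, nor did any elsewhere in KMT2A. In 127 bases of the cluster, chr11:118486391-118486517, genistein, mitoxantrone and p-benzoquinone all had a region. No base of KMT2A was covered in 4 lists.

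In the rest of KMT2A 3 lists met at 3 places. Etoposide, p-benzoquinone and DMSO met at chr11:118493155-118493248 with values of 4.79, 3.85 and 3.22, and a second DMSO region of 2.54 joined them at a further 4 bases. The others lay inside the p-benzoquinone region of 8288 bp, with genistein at 18.0 and mitoxantrone at 8.10 at one place and genistein at 18.3 and DMSO at 5.07 and 4.85 at the other. Over the gene 16.7% of etoposide regions overlapped a DMSO region (1 of 6, exact 95% interval 0.421% to 64.1%), as did 5.88% for genistein (1 of 17, 0.149% to 28.7%), 0% for mitoxantrone (0 of 12, up to 26.5%) and 22.2% for p-benzoquinone (4 of 18, 6.41% to 47.6%). The same shares over whole lists were 8.39%, 6.79%, 7.06% and 7.88%, each inside its interval. Of DMSO regions in the gene 50.0% overlapped a p-benzoquinone region (7 of 14, 23.04% to 76.96%), against 9.16% in the whole DMSO list, and 5 of those 7 lay in the spans described above.

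Genes beside KMT2A did not share its p-benzoquinone level. TTC36, TMEM25, which encodes a membrane protein, and IFT46, which encodes a part of the transport machinery of cilia, touch the 20 kb at the 3′ side. TTC36, of 3.52 kb, had no region in any list. TMEM25 had a cover of 0 under etoposide, 0.63 under genistein, 0.69 under mitoxantrone and 1.33 under p-benzoquinone, against 0 in DMSO. IFT46 had a cover of 0.91 under etoposide, 1.54 under genistein, 2.79 under mitoxantrone and 0.53 under p-benzoquinone, against 0.73 in DMSO. Its 7 mitoxantrone regions in 32.4 kb made it denser than KMT2A in that list.

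By cover, several other H3 lysine 4 methyltransferase genes were also higher under p-benzoquinone than in DMSO, on few regions and at much lower cover than KMT2A. Of the 6 genes, 4 passed 1.5-fold upward and 0 downward, beside 30.1% and 20.1% of all genes. They were KMT2A itself and KMT2B, SETD1A and SETD1B. KMT2B, which acts at developmental genes, had a cover of 2.55 under p-benzoquinone, against 0.81 in DMSO, from 6 and 3 regions. SETD1A had 1.67, against 0.62 in DMSO, from 6 and 3 regions. SETD1B had 1.31, against 0.69 in DMSO, from 6 and 4 regions. Whether such small differences in region number exceed counting error was not tested. KMT2D, an enhancer methyltransferase, had 2.32 under p-benzoquinone, against 1.76 in DMSO, and its paralogue KMT2C had 0.67, against 0.72 in DMSO. The median p-benzoquinone cover of the 6, with KMT2A counted, was 2.00, beside 1.03 over all genes. Whether 4 of 6 genes, KMT2A among them, exceeds the share of all genes was not tested. Under etoposide 3 of the 6 passed 1.5-fold upward and 1 downward, under genistein 0 and 0, and under mitoxantrone 1 and 2, beside 20.7% and 30.4%, 21.7% and 27.5%, and 20.1% and 31.0% of all genes.

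Subunits and partners of the KMT2A complex had a p-benzoquinone cover of at most 2.30, in HCFC1. Of 10 genes, 2 passed 1.5-fold upward and 2 downward for p-benzoquinone, 2 and 3 for mitoxantrone, 2 and 2 for genistein and 1 and 2 for etoposide. The shares of all genes upward and downward were, for p-benzoquinone 30.1% and 20.1%, mitoxantrone 20.1% and 31.0%, genistein 21.7% and 27.5%, and etoposide 20.7% and 30.4%, so with 10 genes the counts are near the background. Both genes that passed upward for p-benzoquinone, MEN1 and KAT8, had no DMSO region, so these calls rest on the pseudocount, as does MEN1 for etoposide and KAT8 for genistein. The median cover of the 10 genes was 1.14 under p-benzoquinone, 0.47 under mitoxantrone, 0.77 under genistein and 1.02 under etoposide, against 1.03 in DMSO. HCFC2, ASH2L and HCFC1 had the highest mean cover over the lists, at 1.26, 1.205 and 1.10. DPY30, the acetyltransferase gene KAT8 and RBBP5 had the lowest, at 0.48, 0.50 and 0.78.

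Fusion partner genes of KMT2A lay near the list means. Of 15 measured partners 3 passed 1.5-fold upward and 1 downward for p-benzoquinone, 4 and 3 for mitoxantrone, 2 and 4 for genistein and 3 and 1 for etoposide, beside the same shares of all genes. Their median cover was 1.05 under p-benzoquinone, 0.96 under mitoxantrone, 0.96 under genistein and 0.82 under etoposide, against 0.82 in DMSO. AFDN, which encodes the junction protein afadin, ELL, which encodes an elongation factor, and MLLT1, which encodes the ENL reader of acetylated histones, had the highest mean cover, at 1.27, 1.252 and 1.15. The demethylation enzyme gene TET1, the acetyltransferase gene EP300 and the endocytosis gene EPS15 had the lowest, at 0.72, 0.74 and 0.83. The highest p-benzoquinone cover among partners was 2.49, in MLLT1, against 0.81 in DMSO.

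By Euclidean distance of log2 cover over 5 lists, close to KMT2A among 2933 genes of similar length were RUNX3 at 1.57, NUAK1 at 1.58, NKD1 at 1.62 and SLC37A1 at 1.63, beside a median distance of 3.29. Since KMT2A ranks 1 of these genes by p-benzoquinone cover, they lie below it by construction. Their p-benzoquinone cover was 3.93, 3.03, 3.05 and 2.84, in that order, against 2.07, 1.38, 1.41 and 1.54 in DMSO. RUNX3 reached its cover with 24 p-benzoquinone regions in 65.6 kb, where KMT2A had 18 regions in 90.3 kb.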

How the data were processed

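TOP2A was immunocaptured from sonicated K562 lysates, the bound DNA released and sequenced, with or without pre-amplification, per the labels' protocols. Per the submitters' processing notes, the build was hg38 and the tools included SAMtools 0.1.19 and Bowtie2 2.1.0. The way regions were called: not given in the sources used here. Per treatment, the authors deposited 1 list with a score per region, of unstated unit, and for mitoxantrone also an input signal, a log2 ratio and a p-value. The mitoxantrone list is named in no label and was matched to its library through the treatment. The depth of each library is unknown.

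Regions on chromosomes 1 to 22, X and Y were kept and overlapping entries of a list joined, with the highest value taken. The callable genome was 2763 Mb, counting 100 kb bins in which at least 1 list has a region. RefSeq's table for GRCh38.p14, whose coordinates match hg38, gave the genes; 18969 of its 20033 protein-coding genes passed the minimum of 50% callable bases, and of the fusion partners MLLT6 did not. Exons were not used. Exact intervals are Poisson for numbers, conditional binomial for ratios and Clopper-Pearson for shares, at 95%. Members, the breakpoint stretch, gene lists and the named-gene rule were chosen with earlier results of these data known. Named are the genes touching the window, 3 lists of genes, and the 5 of similar length closest in log2 cover, of which 1 is not reported here; all regions of the cluster are given. Alternatives are listed under the dependence on processing. Tools were matplotlib 3.10.9, scipy 1.17.1, pandas 2.3.3, numpy 2.4.6 and Python 3.11.15, and the steps were tested on simulated data.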

Additional observations from a re-analysis of the deposited data

How the results depend on the processing

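Of 132 alternative values, 10 moved and 1 turned direction. The others stayed within the counting interval of the reported value or, for region numbers and median values, within 1.5 times it. Many equal the reported value because the setting changed no KMT2A region, so their number does not measure stability. For cover and log2 ratio the interval was scaled from region numbers and takes no account of region width. The p-benzoquinone log2 ratio of 1.65 without the region wider than 5 kb was thus counted as within it. With only values of at least 4 kept, KMT2A held 11 p-benzoquinone and 8 DMSO regions, and 0% of etoposide regions overlapped DMSO. With an overlap of 50% of the smaller region required, 0% of genistein regions did. The p-benzoquinone log2 ratio over DMSO was 0.15 by region number scaled to list size. Leaving out the 1 region wider than 5 kb, chosen after seeing the data, gave a p-benzoquinone cover of 3.92 and a cluster-to-rest ratio of covered bases of 22.2. Leaving out all 7 KMT2A regions of at least 500 bp, also chosen then, gave a cover of 0.976 and turned the log2 ratio to -0.25; these regions carry the result by construction. With regions up to 2 kb apart counted as 1, also chosen after seeing the data, the cluster-to-rest ratio was 1.34 for mitoxantrone and 1.00 for p-benzoquinone, and at 1 kb it was 4.59 and 1.79, each with an interval that includes 1. In the other alternatives it was 5.45 to 7.73 for mitoxantrone and 2.73 to 22.2 for p-benzoquinone. The library depths are unknown and each list holds at most 18 regions in the gene, so only large differences in number are detectable. No paired analysis was possible because the libraries of a treatment were pooled into 1 list, which also means that no replicate could be left out.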

Other observations

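Both p-benzoquinone spans in KMT2A have nearly the same length, 8303 bp for the run of regions in the breakpoint cluster and 8288 bp for the single region downstream, with 15.8 kb between them. The value of the downstream region is the only 1 of 365252 values in the p-benzoquinone list deposited with more than 2 decimals, and the other 4 lists hold none. These features were noticed after the values were seen, and their cause was not tested, including whether KMT2A DNA from outside the cells was in a library.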
